A study of Mus musculus with 6 samples.

Results

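The genes described here encode the CD4 and CD8 coreceptors and the factors that set the CD4 or CD8 lineage of a T cell. They are 9 of the 46983 genes in the count tables: Cd4, Cd8a, Cd8b1, Zbtb7b, Runx1, Runx3, Gata3, Tox and Themis. The genes were chosen by symbol for their role, though with earlier results of these data known. All 9 had an entry in the tables. They were measured by RNA sequencing, after removal of rRNA, in naïve CD4 T cells of 3 control and 3 Rnmt cKO samples. Control mice carried floxed Rnmt alleles without Cre (Rnmt fl/fl CD4cre -), and Rnmt cKO mice carried the same alleles with Cre (Rnmt fl/fl CD4cre +). All were male, on a C57B6/J background per the study's methods, and no ages are given in the labels. The loxP sites flank exon 3 of Rnmt, which encodes the methyltransferase of the RNA cap guanosine. Cre was driven by Cd4 regulatory sequence, so that deletion began in CD4+ CD8+ thymocytes, and every Rnmt cKO library also carried the transgene while no control library did. The cells were sorted from lymph nodes as TCRb+ CD4+ CD62L+ CD44- DAPI-, which means that the CD4 protein itself was part of the gate.

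A T cell precursor in the thymus carries both CD4 and CD8. The coreceptors bind the MHC molecule that presents the peptide, CD4 binding class II and CD8 binding class I, and bring the kinase LCK to the T cell receptor. As the cell matures it keeps 1 coreceptor and silences the other. ThPOK, the product of Zbtb7b, holds CD4 cells in their lineage and keeps CD8 genes off, whereas RUNX factors silence Cd4 in CD8 cells. GATA3 and TOX act before ThPOK, and THEMIS tunes T cell receptor signalling during selection.

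The sequence that ties a coreceptor to LCK is shown because it tells the chains apart whose RNA is compared below. In each stretch, taken from the mm10 genome through the GENCODE vM21 coding sequence and read on the coding strand, capitals mark the paired cysteine codons of the Cys-X-Cys-Pro motif that clasps LCK. The Cd4 stretch lies within chr6:124866269-124866626 on the minus strand and the Cd8a stretch within chr6:71375896-71376866 on the plus strand, each with an intron inside it. No such motif was found in the Cd8b1 coding sequence.
Cd4: aagaagaccTGCcagTGCccccaccggatg
Cd8a: aagcgtgttTGCaaaTGTcccaggccgcta

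Promoter windows of 300 bases (250 before to 50 after a RefSeq start site, GRCm38.p6) were given for 6 of the 9 genes, with Cd4, Cd8b1 and Tox not matched. The RUNX motif AACCACA, searched on both strands, stood in a window of Runx1 and in a window of Runx3, each time as a pair of matches whose starts lay 8 bases apart. These sites are printed because RUNX factors are the link between the lineage factors and the coreceptor genes in this set. They lie at chr16:92826029-92826051 on the minus strand for Runx1 and at chr4:135120506-135120528 on the plus strand for Runx3, with the motif in capitals.
Runx1: aaacAACCACAgAACCACAagtt
Runx3: cctcAACCACAgAACCACAaggc

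The Runx1 pair begins at position 27 and the Runx3 pair at position -135 relative to the start site, and the stretches share an identical run of 18 bases. The single motif stood in 5.27% of 32851 mouse promoter windows, and a pair at this spacing in 5 windows, or 0.0152%. The Cd8a window is printed in part because the gene's RNA was lower in Rnmt cKO. The stretch runs from its first base to just past the start site, at chr6:71373177-71373430 on the plus strand. The window held no match to AACCACA. It held no match either to the GATA motif AGATAA, the ETS motif GGAAGT or the TCF/LEF motif CTTTGAT, which stood in 11.2%, 23.8% and 3.73% of windows. Among the motifs as searched, its only match was an E-box of the form CAGNTG (in 51.4% of windows), in capitals, which spans the start site. Other forms of the E-box were not searched.
Cd8a: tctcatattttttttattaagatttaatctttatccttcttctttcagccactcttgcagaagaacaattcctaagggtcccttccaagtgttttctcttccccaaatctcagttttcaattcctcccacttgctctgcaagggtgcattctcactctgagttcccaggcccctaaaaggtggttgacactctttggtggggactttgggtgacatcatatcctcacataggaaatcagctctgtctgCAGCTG

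The libraries held 8873413 to 11277764 counts on the sense strand of genes, and the share of uniquely mapped reads in no gene ran from 31.8% to 47.9%, with Rnmt cKO 3 lowest and Rnmt cKO 1 highest. Levels are given in CPM, edgeR's measure of a gene's count relative to the total of its library, with the totals scaled between libraries by TMM factors. Rnmt itself stood at 51.5, 58.7 and 57.9 CPM in the controls and at 42.0, 37.5 and 26.6 CPM in Rnmt cKO, a log2 fold change of -0.67 ± 0.20 (SE, n = 3 per group) with an adjusted p of 0.00035 in edgeR's exact test. The gene count takes in exons outside the floxed one. T cell genes marked all 6 libraries, with 7 of 7 listed genes tested. Their summed level was 2770 to 3257 CPM in controls and 2617 to 3186 CPM in Rnmt cKO. Of the 7, 1 fell, against 6.84% of all tested genes: Cd3g, a chain of the CD3 complex (-0.44 ± 0.17, adjusted p = 0.0132, exact test). The call of Cd3g was lost in 4 of 15 alternative settings, with adjusted p of 0.124 without Rnmt cKO 1, 0.115 without Rnmt cKO 2 and 0.130 without control 1.

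All 9 coreceptor and lineage genes passed the filter of more than 1 CPM in at least 3 libraries. Between Rnmt cKO and control, Cd4 rose and Cd8a and Cd8b1 fell, while none of the 6 other genes passed the test (edgeR exact test, Benjamini-Hochberg adjusted over 12336 genes, threshold 0.05). That is 2 of 9 genes lower, against 6.84% of all tested genes, and 1 of 9 higher, against 8%. The libraries of the groups did not overlap for 3 genes that were lower in Rnmt cKO (Cd8a, Cd8b1 and Themis), against 14.9% of all tested genes, and for 2 that were higher (Cd4 and Zbtb7b), against 16.6%. The median log2 fold change of the 9 genes was -0.02, beside 0.01 over all tested genes.

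**Figure D1:**
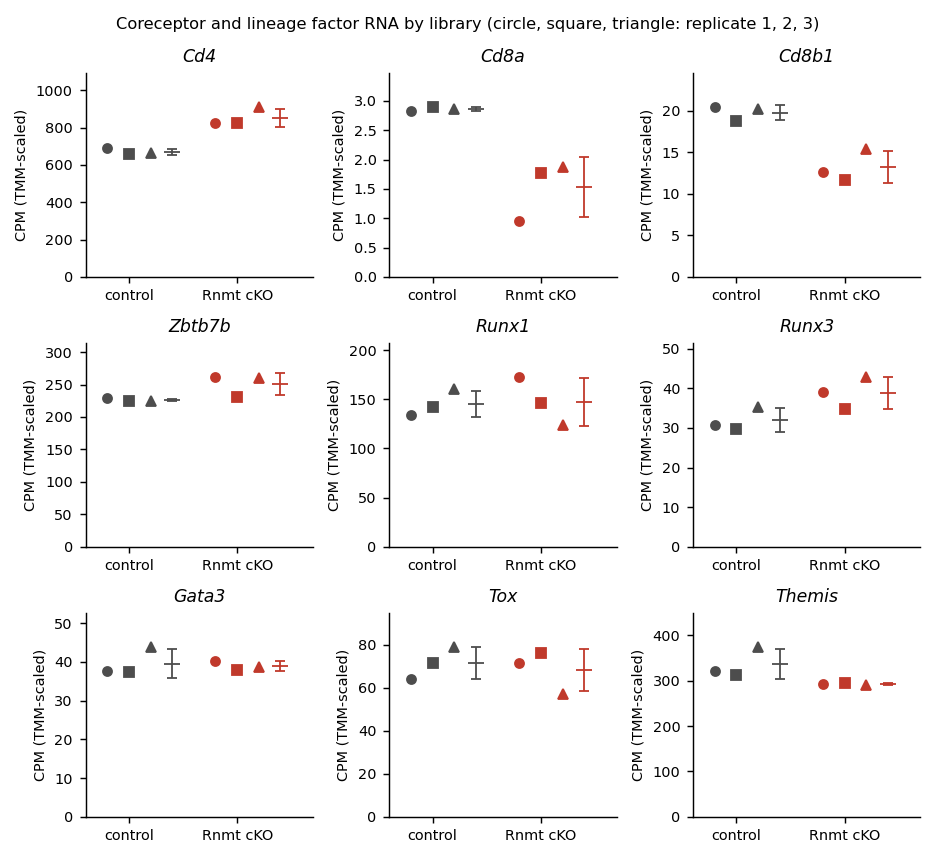
TMM-scaled CPM of each gene in each library, control in grey and Rnmt cKO in red, with the mean and SD of 3 libraries at the right of each group. All Rnmt cKO points lie above the controls for Cd4 and Zbtb7b and below them for Cd8a, Cd8b1 and Themis, and the groups overlap for Runx1, Runx3, Gata3 and Tox.

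Cd4 (ENSMUSG00000023274, chr6:124864692-124888221, minus strand) was the most abundant of these RNAs. Its level was 688.0, 657.5 and 660.9 CPM in the control libraries and 826.8, 823.3 and 909.1 CPM in the Rnmt cKO libraries. Every Rnmt cKO library lay above every control. The group means were 668.8 ± 16.7 and 853.1 ± 48.6 CPM (SD, n = 3 each), a rise of 27.6%, and the log2 fold change was 0.35 ± 0.05 (SE) with an adjusted p of 0.00491 in the exact test. Without control 2 the adjusted p of Cd4 in edgeR was 0.0759 at a log2 fold change of 0.34. In bulk RNA a change in the number of cells of a type and a change in RNA per cell cannot be told apart.

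Cd8b1 (ENSMUSG00000053044, chr6:71322788-71337494, plus strand), the β chain of CD8, stood at 20.5, 18.8 and 20.2 CPM in controls. In Rnmt cKO it was 12.7, 11.7 and 15.4 CPM, below every control. The mean fell from 19.8 ± 0.914 to 13.3 ± 1.91 CPM (SD, n = 3 each), with a log2 fold change of -0.58 ± 0.12 (SE) and an adjusted p of 0.00288 in the exact test. Without Rnmt cKO 2 the adjusted p of Cd8b1 in edgeR was 0.0505 at a log2 fold change of -0.49.

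Cd8a (ENSMUSG00000053977, chr6:71373427-71379173, plus strand), the α chain of CD8, lies 35932 bases from Cd8b1, with 4 predicted genes between them. It was represented by few reads, 24, 29 and 26 counts in controls and 9, 21 and 21 counts in Rnmt cKO. These are 2.82, 2.89 and 2.87 CPM in controls against 0.951, 1.77 and 1.88 CPM in Rnmt cKO, so that the groups did not overlap. The exact Poisson 95% intervals, which cover counting error only, were wide: 1.88 to 4.21 CPM for control 3 and 1.17 to 2.88 CPM for Rnmt cKO 3. The log2 fold change was -0.87 ± 0.27 (SE, n = 3 per group) and the adjusted p of 0.0482 in the exact test lay just under the threshold. The fall passed in 4 of 15 alternative settings, with log2 fold changes from -1.04 to -0.65 and adjusted p from 0.0176 to 0.271 in edgeR or DESeq2, and among the settings without a single library it passed without Rnmt cKO 3 only.

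Within each library the coreceptor genes were also set against each other, which needs no scaling between libraries. The log2 ratio of Cd8a to Cd4 counts was -7.90, -7.80 and -7.82 in controls and -9.69, -8.83 and -8.88 in Rnmt cKO. All 3 Rnmt cKO libraries had the lower ratio, by 1.29 on the log2 scale (SE 0.28), and the two-sided exact permutation p of 0.10 is the smallest that 3 against 3 libraries allow. The log2 ratio of Cd8b1 to Cd8a counts was 2.77 ± 0.0813 in controls and 3.12 ± 0.494 in Rnmt cKO (SD, n = 3 each), with overlapping groups and an exact permutation p of 0.30, in a design that cannot go below 0.10. The difference of 0.36 (SE 0.29) was 0.084 without Rnmt cKO 1 and 0.57 without Rnmt cKO 2. Over the 3 ratios tested, p adjusted by Benjamini-Hochberg was 0.30 for each.

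Markers of NK cells, of dendritic and myeloid cells and of thymocytes are given beside these values. Not all of these cells carry CD8. Of 5 NK cell genes (Ncr1, Klrb1c, Klre1, Tyrobp and Klra8) none passed the filter, and their summed level was 0.442 to 1.50 CPM in controls and 0.986 to 2.11 CPM in Rnmt cKO. Of 9 dendritic and myeloid genes 2 were tested, and Xcr1, Clec9a and Batf3, which define the dendritic cells that carry CD8α, were at 3 counts or fewer in every library. Of the 2 tested, 1 rose, against 8% of all tested genes: Lyz2, the myeloid lysozyme (1.60 ± 0.48, adjusted p = 0.00123, exact test). Lyz2 was at 3.17, 2.00 and 3.09 CPM in controls and at 5.18, 13.8 and 5.92 CPM in Rnmt cKO, with Rnmt cKO 2 highest. The summed level of the dendritic and myeloid list was 23.7 to 29.0 CPM in controls and 27.1 to 36.4 CPM in Rnmt cKO. Of 10 thymocyte genes Rag1, Rag2 and Ptcra, of receptor gene rearrangement and the pre-T cell receptor, were at 3 counts or fewer in every library, whereas Dntt, the gene of terminal transferase, was at 9.61 to 12.5 CPM in controls and 8.94 to 10.4 CPM in Rnmt cKO. Of the 7 genes tested from the thymocyte list, 3 rose, against 8% of all tested genes: Cd1d1 (0.46 ± 0.13), Cd24a (0.89 ± 0.25) and Arpp21 (1.03 ± 0.28). Their adjusted p was 0.00451, 0.00832 and 0.0416 in the exact test. Cd24a was highest in Rnmt cKO 2, at 9.79 CPM beside 6.55 and 6.99 CPM, as was the summed B cell list given below. Cd1d1 and Arpp21 were highest in Rnmt cKO 1. Whether these reads came from thymocytes or from other cells was not tested. Ccr9, a homing receptor, was lower in every Rnmt cKO library without passing (-0.50 ± 0.11, adjusted p = 0.0898), and is named with Dntt after its values were seen. The call of Cd1d1 was lost without Rnmt cKO 1 and without control 3, that of Cd24a without Rnmt cKO 2, control 2 or control 3 (adjusted p of 0.119, 0.0670 and 0.0874), and Arpp21 passed in 5 of 14 alternative settings. The summed level of the thymocyte list was 52.9 to 65.4 CPM in controls and 70.1 to 77.7 CPM in Rnmt cKO. The part of NK cells, dendritic and myeloid cells and thymocytes in the coreceptor values was not tested.

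**Figure D2:**
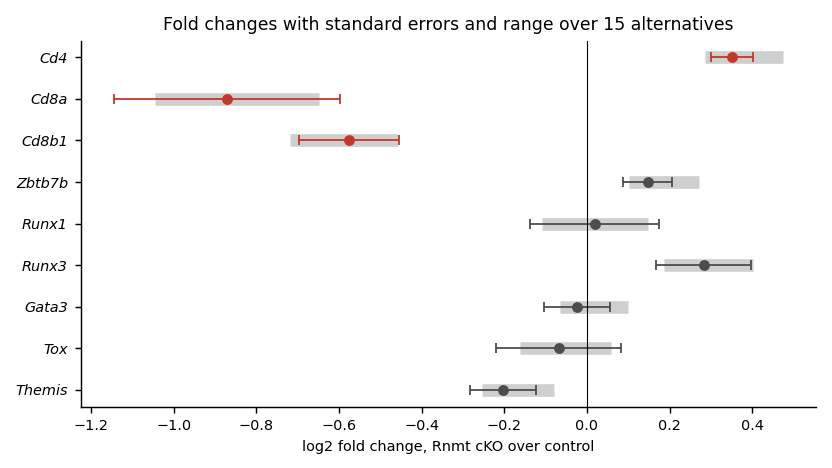
Log2 fold change (Rnmt cKO over control) of each gene, with the point and SE from the main comparison, red where it passed the threshold, and a grey band from the lowest to the highest value over 15 alternative settings. The bands of Cd4, Cd8a, Cd8b1, Zbtb7b, Runx3 and Themis keep to 1 side of 0 and those of Runx1, Gata3 and Tox cross it.

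Zbtb7b (ENSMUSG00000028042, chr3:89377644-89394776, minus strand), which encodes ThPOK, was measured at 228.8, 225.1 and 225.1 CPM in controls. In Rnmt cKO it was 261.4, 230.6 and 259.9 CPM, and the lowest of these was just above the highest control. The log2 fold change of 0.15 ± 0.06 (SE, n = 3 per group) did not pass (adjusted p = 0.348, exact test). It passed in 1 of 15 alternative settings, the one without scaling beyond library size.

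Runx3 (ENSMUSG00000070691, chr4:135120652-135177990, plus strand), the RUNX factor of CD8 cells, stood at 30.8, 29.7 and 35.3 CPM in controls and at 39.1, 34.7 and 42.8 CPM in Rnmt cKO. Its lowest Rnmt cKO library lay under the highest control. The log2 fold change was 0.28 ± 0.12 (SE, n = 3 per group), with p = 0.0269 and an adjusted p of 0.130 in the exact test. Runx3 passed in 2 of 15 alternative settings, without scaling beyond library size and with the share of reads in no gene as a covariate. With Zbtb7b set against Runx3 within each library, the log2 ratio was 2.83 ± 0.136 in controls and 2.69 ± 0.0786 in Rnmt cKO (SD, n = 3 each), the groups overlapped and the exact permutation p was 0.30.

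Runx1 (ENSMUSG00000022952, chr16:92601466-92826149, minus strand), the RUNX factor of thymocytes and naïve T cells, gave 134.3, 142.0 and 160.0 CPM in controls and 172.5, 145.9 and 124.0 CPM in Rnmt cKO. The Rnmt cKO libraries spread on both sides of the controls, with a log2 fold change of 0.02 ± 0.16 (SE) and an adjusted p of 0.969 in the exact test. CBFβ is the partner that RUNX proteins need to bind DNA, and Cbfb RNA ran from 187.2 to 198.9 CPM in controls and from 186.0 to 234.2 CPM in Rnmt cKO.

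Gata3 (ENSMUSG00000015619, chr2:9857078-9890034, minus strand), a zinc finger factor needed for CD4 cells, was at 37.6, 37.3 and 43.8 CPM in controls and at 40.4, 37.9 and 38.7 CPM in Rnmt cKO. The values overlapped, and the log2 fold change was -0.02 ± 0.08 (SE, n = 3 per group, adjusted p = 0.954, exact test). Tox (ENSMUSG00000041272, chr4:6686353-6991557, minus strand), an HMG box factor required for CD4 lineage cells in the thymus, was at 64.1, 71.8 and 79.0 CPM in controls and at 71.4, 76.1 and 57.4 CPM in Rnmt cKO. Its groups overlapped too, with a log2 fold change of -0.07 ± 0.15 and an adjusted p of 0.822 in the exact test.

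Themis (ENSMUSG00000049109, chr10:28668360-28883818, plus strand), the signalling protein of thymocyte selection, was at 321.5, 313.1 and 374.0 CPM in controls. In Rnmt cKO it was at 292.3, 294.4 and 289.5 CPM, each below the lowest control. The log2 fold change of -0.20 ± 0.08 (SE, n = 3 per group) had p = 0.0480 and did not pass after adjustment (adjusted p = 0.194, exact test), though it did so in 1 of 15 alternative settings, the one with that covariate.

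Per exon length, in RPKM (CPM divided by the joined exon length in kilobases), the order of levels in controls ran from Cd4 at 215.2 ± 5.37 through Themis at 59.7 ± 5.86, Zbtb7b at 47.4 ± 0.446, Runx1 at 19.5 ± 1.78, Tox at 18.1 ± 1.88, Cd8b1 at 13.4 ± 0.617, Gata3 at 12.3 ± 1.15 and Runx3 at 7.65 ± 0.713 to Cd8a at 0.914 ± 0.0119 RPKM (SD, n = 3). In this order Runx1 and Tox overlapped, as did Cd8b1 and Gata3, and every other pair of neighbours was apart. The chains of CD8 thus stood far apart in cells sorted for CD4, with Cd8b1 above 61.4% and Cd8a above 9.64% of 12296 tested genes of known length, beside 98.3% for Cd4. In Rnmt cKO the order was Cd4 at 274.5 ± 15.6, Zbtb7b at 52.5 ± 3.64, Themis at 51.9 ± 0.440, Runx1 at 19.8 ± 3.25, Tox at 17.2 ± 2.46, Gata3 at 12.1 ± 0.393, Runx3 at 9.31 ± 0.979, Cd8b1 at 8.95 ± 1.29 and Cd8a at 0.490 ± 0.162 RPKM. There Zbtb7b and Themis overlapped, as did Runx1 and Tox, and Runx3 and Cd8b1.

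**Figure D3:**
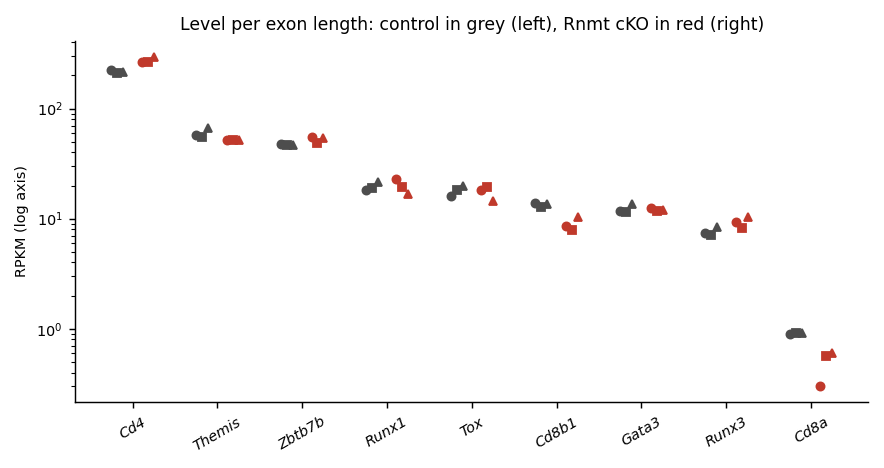
RPKM of each gene in each library on a log axis, genes in the order of the control means, control in grey at the left and Rnmt cKO in red at the right. Cd4 stands highest at 211.5 to 292.5 RPKM and Cd8a lowest at 0.304 to 0.924 RPKM, with Cd8b1 between at 7.91 to 13.8 RPKM.

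The counts were stranded, so reads that lay on the opposite strand of each gene could be read apart from its own. For Cd4 these were 8, 9 and 8 counts in controls and 57, 77 and 62 counts in Rnmt cKO. The groups were far apart, with totals of 25 and 196. As a share of all reads on a gene, with the libraries pooled, such reads had a median of 0.524% over 12336 tested genes. The upper quartile was 2.12%. For Cd4 the share was 0.134% to 0.137% in controls and 0.608% to 0.783% in Rnmt cKO. The rise of the opposite-strand reads thus went beyond that of the sense reads. This was noticed when the values were seen, and a test was then added on all 4468 genes with a mean of at least 10 such counts per library. The log2 fold change of Cd4 was 2.72 ± 0.07 (SE, n = 3 per group, on sense library sizes), with an adjusted p of 8.83e-15 in edgeR's exact test. It ranked 4 of 4468 by p, and 114 genes, or 2.55%, were called higher in Rnmt cKO. Leaving out any single library gave 2.66 to 2.77.

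No annotated gene overlaps Cd4. Its neighbours on the chromosome had few reads on their opposite strands, 6 in all controls and 2 in all Rnmt cKO libraries for Gpr162, and 1 and 0 for Lag3, the gene of an inhibitory MHC class II receptor. Both genes were barely read at all, with 4 to 7 sense counts per library for Gpr162 and 7 to 23 for Lag3. Their opposite-strand counts therefore cannot show whether the opposite-strand rise was confined to Cd4. Even in Rnmt cKO the opposite-strand reads of Cd4 were under 1% of its sense reads. Counting both strands together could therefore hardly change the result of Cd4, which was a log2 fold change of 0.36. The transgene with Cd4 regulatory sequence was present in every Rnmt cKO library and in no control, so that its part in the Cd4 values on either strand and that of Rnmt loss cannot be told apart.

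Among the other coreceptor and lineage genes Zbtb7b was the only one with enough opposite-strand counts to be tested, 26, 25 and 17 in controls and 19, 26 and 29 in Rnmt cKO. Its groups overlapped and it did not pass (adjusted p = 0.988, exact test). Cd8a and Cd8b1 had at most 3 opposite-strand counts in any library, and Runx1, Runx3, Gata3, Tox and Themis had 1 to 15. Gm15417, annotated inside Zbtb7b on the opposite strand, had 12 to 32 counts, and each other gene annotated over Runx1, Runx3, Gata3, Tox or Themis and present in the tables had 9 counts or fewer in every library.

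**Figure D4:**
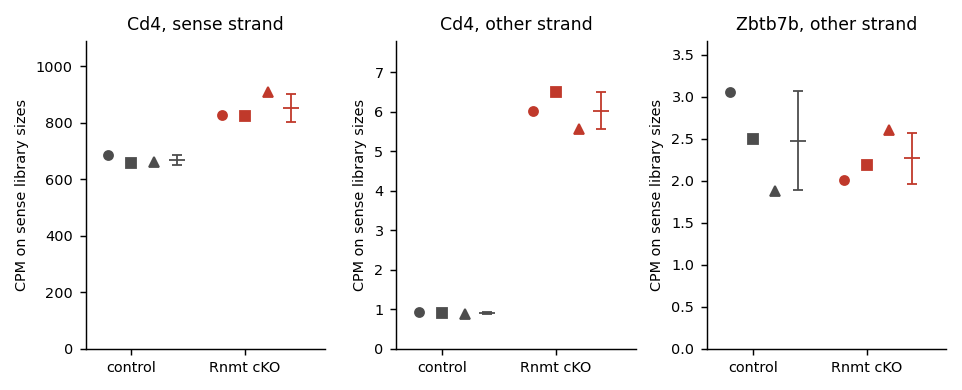
CPM, on the scaled sense library sizes, for Cd4 on its own strand, Cd4 on the opposite strand and Zbtb7b on the opposite strand, by library with the mean and SD of 3. Opposite-strand Cd4 sits at 0.884 to 0.941 in controls and at 5.56 to 6.50 in Rnmt cKO, whereas the Zbtb7b groups overlap.

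Regulators that act on the same choice of lineage were read from a list of 35 genes, all of which were tested. Of these 7 rose in Rnmt cKO, against 8% of all tested genes, none fell (0 of 35 in the exact test), against 6.84%, and 28 did not pass, with a median log2 fold change of 0.07. Myb, a factor of early T cells and of Gata3 induction, was at 29.7, 31.7 and 27.6 CPM in controls and at 74.3, 104.0 and 61.1 CPM in Rnmt cKO (1.43 ± 0.23, adjusted p = 1.5e-13, edgeR exact test). Id2, which blocks E proteins, rose by 0.91 ± 0.08 and Socs1, an inhibitor of cytokine signals, by 0.91 ± 0.09, with adjusted p of 4.53e-13 and 1.16e-11. Stat5a, which carries IL-7 and IL-2 signals, rose by 0.52 ± 0.07 (adjusted p = 2.74e-06). The other 3, named after their values were seen, were the repressor gene Gfi1 (0.47 ± 0.06), the BAF chromatin subunit gene Smarce1 (0.40 ± 0.05) and Notch1 (0.36 ± 0.05), the last with an adjusted p of 0.0602 without control 2. The groups did not overlap for 11 of the 35 genes in the higher direction, against 16.6% of all tested genes, and for 3 in the lower, against 14.9%. At an unadjusted p under 0.05 the exact test had 1 of the 35 genes lower, Arid1a (-0.26 ± 0.10, adjusted p = 0.088), and DESeq2 and edgeR's quasi-likelihood test called 0 lower after adjustment.

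The 20 listed genes of the CD8 lineage and of cytotoxicity were mostly low in these cells, and 11 were tested. Of these 5 fell, against 6.84% of all tested genes, 1 rose, against 8%, and 5 did not pass, with a median log2 fold change of -0.44. Prf1, the gene of the pore-forming perforin, was at 35.6, 34.3 and 29.3 CPM in controls and at 13.5, 12.4 and 16.8 CPM in Rnmt cKO (-1.22 ± 0.15, adjusted p = 1.76e-13, edgeR exact test). Fasl, the ligand of the death receptor Fas, fell by 1.09 on the log2 scale (SE 0.12) and Klrd1, which encodes the NK receptor chain CD94, by 1.34 (SE 0.44), with adjusted p of 9.75e-07 and 0.000991. Ctsw, a cathepsin of cytotoxic cells (-0.40 ± 0.13), and Crtam (-0.71 ± 0.21) also fell, and are named after their values were seen, Crtam passing in 5 and Ctsw in 10 of 15 alternative settings. Eomes, a T-box factor of CD8 memory and NK cells, rose, from 3.29 to 5.17 CPM in controls to 6.97 to 13.3 CPM in Rnmt cKO (1.23 ± 0.32, adjusted p = 0.000463). The groups did not overlap for 6 of the 11 tested genes in the lower direction, against 14.9% of all tested genes, and for 2 in the higher, against 16.6%. Tbx21, Nkg7, Ccl5, Gzma, Gzmb, Gzmk, Klrk1, Klrc1 and Xcl1 did not reach the filter, and Gzmk was at 3 counts or fewer in every library. Gzmb, named after its values were seen, was at 3, 2 and 0 counts in controls and at 7, 23 and 6 counts in Rnmt cKO.

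Of 7 genes that mark CD4 helper cells 2 rose, against 8% of all tested genes, 1 fell, against 6.84%, and 4 did not pass, with a median log2 fold change of 0.13. Tnfsf8, the gene of CD30 ligand, rose by 0.82 ± 0.07 and Tnfrsf4, the gene of OX40, by 0.64 ± 0.07, with adjusted p of 1.32e-14 and 3.91e-06 in the exact test. Cd40lg, the ligand through which helper cells act on B cells, fell (-0.41 ± 0.08, adjusted p = 0.00507), with the call lost without Rnmt cKO 2 (adjusted p = 0.0797) and without scaling (0.0740). Of 12 relatives of the 9 genes by family, 7 were tested and 2 rose, against 8% of all tested genes, Tox4 (0.41 ± 0.07, adjusted p = 0.000344) and Gata1 (0.70 ± 0.09, adjusted p = 0.000487), and 5 did not pass. The median of those tested was 0.66, carried in part by Lag3, Runx2 and Themis2, which lay between 0.773 and 2.75 CPM and did not pass.

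**Figure D5:**
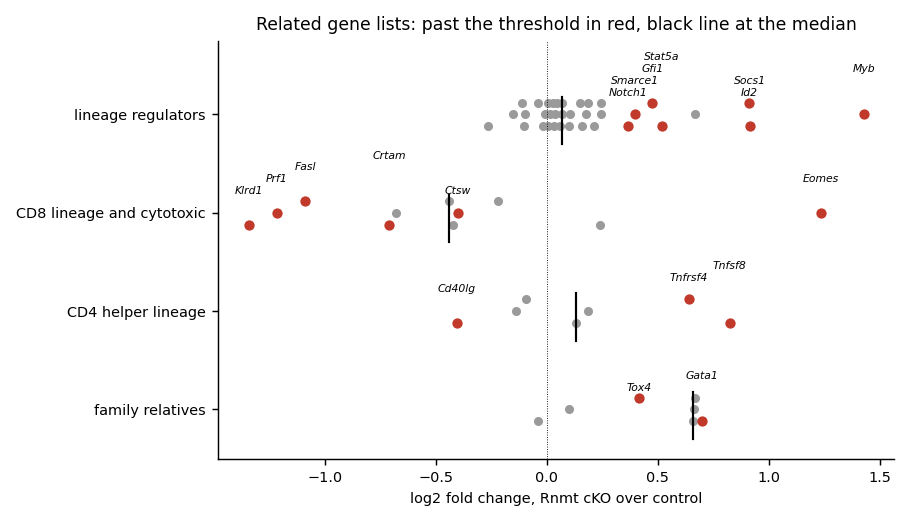
Log2 fold changes of the tested genes of 4 related lists, red and named where they passed the threshold, with the median of each list as a black line. The medians are 0.07 for lineage regulators, -0.44 for CD8 lineage and cytotoxic genes, 0.13 for CD4 helper genes and 0.66 for family relatives.

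Markers of other lymphocytes moved with the genotype as well. Of 6 regulatory T cell genes 3 fell, against 6.84% of all tested genes: Foxp3 (-0.91 ± 0.10), Nrp1 (-0.85 ± 0.13) and Il2ra (-0.56 ± 0.19), with adjusted p of 1.49e-08, 1.94e-08 and 0.00314 in the exact test, and the summed level of the list was 242.3 to 288.9 CPM in controls and 202.5 to 216.4 CPM in Rnmt cKO. The call of Il2ra was lost without control 3 (adjusted p = 0.0557) and without scaling (0.0544). Of 5 B cell genes 3 rose, against 8% of all tested genes: Ms4a1 (0.75 ± 0.19), Cd22 (0.80 ± 0.25) and Cd79b (0.61 ± 0.25), with adjusted p of 0.00409, 0.00655 and 0.048. Without Rnmt cKO 2 none of these 3 B cell genes passed in edgeR (adjusted p of 0.0937, 0.119 and 0.322), Cd22 was also lost without control 1 (0.0520), and Cd79b passed in 4 of 15 alternative settings. Their list summed to 34.7 to 40.1 CPM in controls and 42.5 to 74.2 CPM in Rnmt cKO, with Rnmt cKO 2 highest. The part of either list in the coreceptor and lineage values was not tested.

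Because the share of reads in no gene differed among libraries, the groups were also compared within the 3 libraries with the lowest share (controls 1 and 2 and Rnmt cKO 3) and within the 3 with the highest (control 3 and Rnmt cKO 1 and 2). The log2 difference of Cd4 was 0.43 in the first set and 0.32 in the second, and that of Cd8b1 was -0.34 and -0.72. That of Cd8a was -0.55 and -1.03. Zbtb7b differed by 0.20 and 0.13, Runx3 by 0.50 and 0.06 and Themis by -0.13 and -0.35. Gata3 changed sign between the sets, at 0.05 and -0.16, while Runx1 was at -0.15 and -0.01 and Tox at -0.24 and -0.10. Each set holds only 1 library of 1 of the groups, so no test was made.

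Genes whose level over the 6 libraries ran most like that of a coreceptor were found by the smallest root mean square distance of centred log2 CPM, among genes with a mean of at least 5 CPM. For Cd4 they were Cebpz, Arpc5l and Abcf1, at distances of 0.0329, 0.0334 and 0.0336, beside a median distance of 0.225 over 9704 genes. For Cd8b1 they were Msra, Slc16a5 and Snrpert, at 0.0332, 0.0482 and 0.0550, beside a median distance of 0.345. For Cd8a, where counting error is larger, they were Pcbd2, Ece2 and Praf2, at 0.133, 0.139 and 0.147, beside a median distance of 0.535. In 1 GENCODE transcript per gene, the annotated 5′ end began with A in 6 of the 9 genes, G in 2 and C in 1 (Runx3). None of these began with a terminal oligopyrimidine tract, and other annotated starts of the genes were not read.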

How the data were processed

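RNA from sorted naïve CD4 T cells was rRNA-depleted, made into TruSeq libraries and sequenced as paired ends. The authors aligned reads to mm10 with STAR 2.5.2b against the basic GENCODE vM12 annotation. They deposited raw counts per gene, for either strand and for each strand apart. Their deposited table of normalized signal per sample equals the sense counts divided by 1 constant per library, within 0.1%, for 100% of its 11221 genes, and served for that check and for gene symbols. Its columns of fold changes and p-values hold the authors' own comparison and were not used.

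Sense counts were tested with edgeR 4.0.16 in R 4.3.3, by TMM scaling and the exact test with tagwise dispersion on genes of more than 1 CPM in at least 3 libraries, with p adjusted over all 12336 tested genes. The SE of a log2 fold change came from log2 CPM with a prior count of 2. Ratios within a library added 0.5 to each count. Library depth was 8873413 to 11277764 sense counts, and each value rests on 3 libraries per group. Per the study's supplement the RNA came from 3 mice per group. Exon lengths and coordinates came from GENCODE vM21, which held 46488 of the 46983 gene identifiers.

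Genes were named by rule: the 9 genes, Rnmt, up to 4 genes per list with the smallest p among those past the threshold or otherwise up to 3 by level, their relatives and neighbours, and the 3 genes most alike to each coreceptor. The genes and lists were chosen with earlier results of these data known, and 1 listed gene is not reported here. The test of opposite-strand counts, on genes with a mean of at least 10, was added after seeing the data. Alternatives were DESeq2 1.42.0, other scalings, filters and strand counting, edgeR's quasi-likelihood test alone, with the share of reads in no gene or with the replicate number as a term, and leaving out each library. The tests were tested beforehand on counts simulated at a single dispersion. The genes changed there lay above the level of Cd8a, and their changes were larger than that of Cd4, so such cases were not covered.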

Additional observations from a re-analysis of the deposited data

Results flagged for a closer look

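Reads on the opposite strand of Cd4, a measurement outside the comparison of sense counts, were above the level of the control libraries. The log2 fold change was 2.72 in Rnmt cKO over control, from 25 counts in all controls to 196 counts in all Rnmt cKO libraries, and all 3 Rnmt cKO libraries lay above all controls. No group of 3 libraries was searched for a single library that stood apart.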

How the results depend on the processing

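The 9 coreceptor and lineage genes had 2 lower and 1 higher in Rnmt cKO. There was 1 lower under DESeq2, without the filter, without scaling beyond library size, in the quasi-likelihood test and with unstranded counts. There were 3 higher without scaling, which moved the median of all tested genes from 0.01 to 0.14, and 2 higher with the share of reads in no gene as a covariate. Without single libraries 0 to 2 were lower and 0 to 1 higher. Cd8a passed only without Rnmt cKO 3, Cd8b1 was lost without Rnmt cKO 2 and Cd4 without control 2. Of the lineage regulators 13 were higher without scaling and 13 with the covariate, which also had 1 lower. Without single libraries 0 to 0 were lower and 6 to 8 higher. Of the CD8 lineage and cytotoxic genes 3 were lower without scaling, and 3 to 4 were lower and 1 to 1 higher without single libraries, the count of 3 being reached without Rnmt cKO 1 and without control 2. The log2 ratio of Zbtb7b to Runx3 differed by -0.30 in the libraries with the lowest share of reads in no gene and by 0.067 in those with the highest, and the cause was not tested.

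Deviations of same-numbered libraries from their group means correlated between -0.345 and -0.0165, and 0 of 3 controls correlated best with the Rnmt cKO library of its own number. The deviations were centred within each group of 3 libraries, so this check cannot show whether same-numbered libraries shared more than a number. With that number as a block in edgeR's quasi-likelihood test, 0 of the 9 genes were lower and 0 higher (Cd4 0.35 with adjusted p = 0.138, Cd8b1 -0.58 with adjusted p = 0.0635), against 1 and 1 in the same test without the block (adjusted p = 0.0303 for Cd4 and 0.0219 for Cd8b1). Of the CD8 lineage and cytotoxic genes 2 were lower and 0 higher, against 4 and 1 in that test, and over all genes 276 were lower and 431 higher, against 636 and 793 in the same test without the block (844 and 987 in the exact test). The test with the covariate called 1466 lower and 1696 higher, the one without scaling 535 and 1938, and those without 1 library 547 to 1285 lower and 643 to 1221 higher.

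Among the 6 genes that did not pass, signs turned for Runx1 (-0.023 with the covariate, -0.11 to 0.11 without single libraries), Gata3 (0.10 without scaling, -0.066 to 0.056 without single libraries) and Tox (0.058 without scaling, -0.16 to 0.026 without single libraries). Opposite-strand Cd4 kept its direction and passed under all 8 alternatives, at 2.66 to 2.85, and without single libraries at 2.66 to 2.77. Depth limits Cd8a above all, with 9 to 29 counts per library.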
